A study of Homo sapiens with 3 samples.

Results

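Heat shock chaperones of the cytosol and mitochondria were followed across 3 lists of ribosome peaks, using 10 genes chosen by name (HSP90AA1, HSP90AB1, HSPA1A, HSPA1B, HSPA8, HSPA4, HSPH1, HSPA9, HSPD1 and HSPE1) out of 3799 genes with at least 1 peak. Each peak was assigned by the RefSeq identifier in its annotation where that identifier could be matched to a gene, and otherwise to the gene named in its row. HEK293T cells, a human embryonic kidney line, were transfected for 24 h with the empty pcDNA3.1 vector or with 1 of a pair of FLAG-tagged constructs, wild-type DDX3X and its G325E substitution. DDX3X is an RNA helicase. The constructs were expressed transiently on top of the cells' own DDX3X, and every library came from the same line. Ribosome-protected RNA was sequenced from 1 library per construct, so no difference below can be set against a spread between cultures and no test was run. Per the labels, cells received harringtonine at 2 µg/ml for 90 s and then cycloheximide at 100 µg/ml, whereas the study's methods mention cycloheximide alone, and this could not be settled here. The comparisons ask whether expressing either form of DDX3X changed where ribosomes were found on these mRNAs.

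Heat shock proteins fold newly made and damaged proteins. HSP70 proteins bind exposed hydrophobic stretches with the help of J-domain partners, HSP110 proteins help HSP70 to release its nucleotide, and HSP90 matures kinases and steroid receptors. In mitochondria, an HSP70 drives protein import and the HSP60 barrel with its HSP10 lid folds imported proteins. HSPA1A and HSPA1B are stress-inducible, while HSPA8 and HSP90AB1 are made constitutively.

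The files gave the position of each peak and no height or read count, so the number of peaks, the share of the list and the coding bases under a peak stand in for level, and read depth is not in these lists. By the study's own table of reads, which was not used for scaling, the wild-type library had the most distinct mapped reads and G325E the fewest, so an absent peak in G325E and lower depth cannot be told apart. A peak reflects both the amount of an mRNA and the ribosomes on it, and these cannot be told apart here. The vector, wild-type DDX3X and DDX3X G325E lists held 11219, 19920 and 15680 peaks. Peak numbers were skipped in 14.8% and 13.5% of the numbering of the vector and wild-type lists and in 0 of G325E. DDX3X itself had 0 peaks with vector, 32 with wild-type and 9 with G325E. The labels call the cells neuronal, but 3 of 12 neuronal markers (NEFL, NEFM and TUBB3) and 2 of 10 kidney epithelial markers (KRT8 and KRT18) had any peak. MAP2, RBFOX3, PAX2 and UMOD were among those with 0 peaks in every list.

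The sequences shown here are those under peaks that carry the pattern, at most 30 bases each, read from GRCh37 on the strand of the peak with G and C in capitals. Peaks that vector or wild-type had on HSP90 and HSPA8 coding sequence lay on stretches such as these.
HSP90AA1, codon 501, chr14:102549610-102549639, minus strand, vector: GtGaGaCCaaGGaCCaGGtaGCtaaCtCaG
HSP90AB1, codon 493, chr6:44219737-44219766, plus strand, wild-type: tGaGaGCaaaGaGCaGGtGGCCaaCtCaGC
HSPA8, codon 548, chr11:122929061-122929081, minus strand, wild-type: atGCCttCaaCatGaaaGCaa
None of these 3 was overlapped by a G325E peak. The HSP90AA1 and HSP90AB1 stretches come from matching places in the paralogs and share 24 of 29 bases when shifted by 1 base. The next pair, both poor in G and C, lay under peaks in all 3 lists.
HSP90AA1, codon 85, chr14:102552356-102552384, minus strand: tataCCGaaCaaaCaaGatCGaaCtCtCa
HSPA4, codon 739, chr5:132439600-132439628, plus strand: taGaaaaaaGCaCaaatGaaGCaatGGaG
The last set lay under G325E peaks alone, around the shared start region of HSPD1 and HSPE1, which are transcribed away from each other.
HSPD1, intron, chr2:198364058-198364077, minus strand: GCCGCCGCCCCCaGCatCGC
HSPE1, upstream, chr2:198364885-198364906, plus strand: tCGGCtGGGCGCCtaGaaaaGC
HSPE1, upstream, chr2:198364973-198365001, plus strand: GGGCGaatCGCGGtGCGCGtCGGGGCGaC
HSPE1, across the transcript start, chr2:198365080-198365107, plus strand: tCaCGtGtCGCCaGGGCCGGaCtGCGaG
G and C made up 63.6% to 85% of the bases in this last set, against 38.1% to 56.7% in the first.

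To ask how the chaperones fared as a group, their peaks were counted in each list. Vector held 85 of them over 6 of the 10 genes (exact 95% Poisson interval 67.9 to 105), wild-type 134 over 8 genes (112 to 159) and G325E 71 over 7 genes (55.5 to 89.6). As a share of the list, the chaperones took up 0.758% of vector (Wilson, 95%, 0.613 to 0.936), 0.673% of wild-type (0.568 to 0.796) and 0.453% of G325E (0.359 to 0.571). These intervals, like all those below, cover counting error only. The share in G325E was 0.673 of that in wild-type (exact conditional binomial interval 0.498 to 0.904) and 0.598 of that in vector (0.43 to 0.829), while wild-type stood at 0.888 of vector (0.672 to 1.18). Set against exon-class peaks instead of all peaks, the chaperones in G325E stood at 0.977 of wild-type (0.722 to 1.31) and 0.832 of vector (0.598 to 1.15), since exon-class peaks were 35.6% of the G325E list and 51.6% of the wild-type list.

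The sum joined genes that went separate ways. HSPA1A and HSPA1B, the inducible HSP70 pair, had 33, 33 and 39 peaks together in vector, wild-type and G325E. The other 8 genes had 52, 101 and 32, so that their share of the list in G325E was 0.403 of wild-type (0.262 to 0.604) and 0.44 of vector (0.274 to 0.697). For the pair, the same ratios were 1.5 (0.92 to 2.46) and 0.846 (0.518 to 1.39). HSPA1A and HSPA1B thus made up 54.9% of the chaperone peaks in G325E, against 38.8% in vector and 24.6% in wild-type. Their coding sequences are 99.8% identical, so their peaks are not independent counts. Intervals and shares that include both genes do not allow for this.

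**Figure D1:**
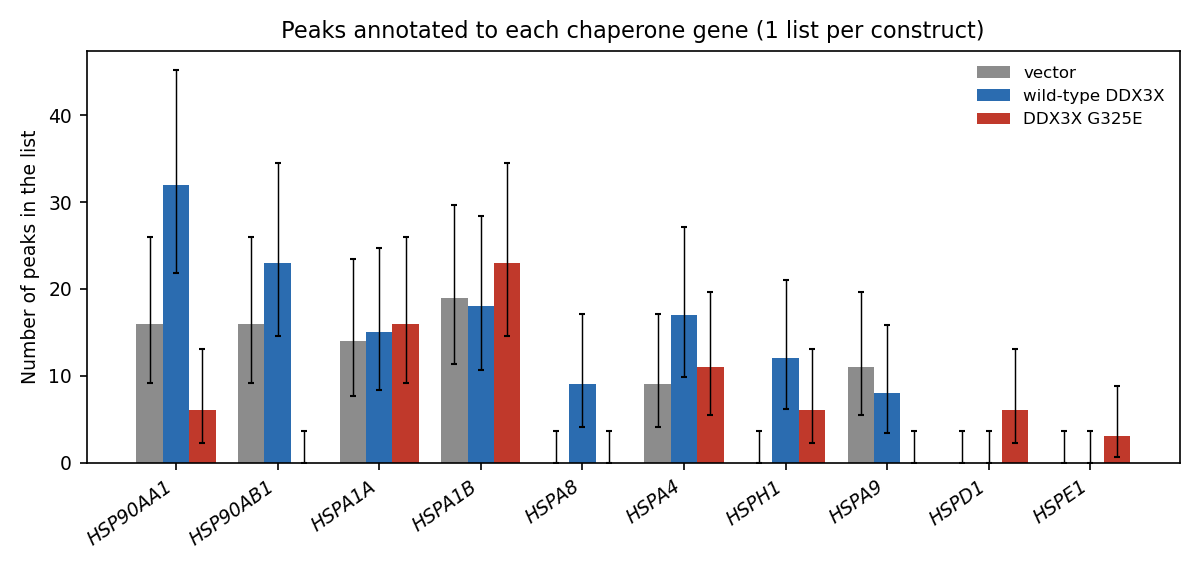
Number of peaks given to each of the 10 chaperone genes (bars) in the vector, wild-type DDX3X and DDX3X G325E lists, 1 list per construct, with exact 95% Poisson intervals as error bars (counting error only). HSP90AA1 and HSP90AB1 stand at 32 and 23 peaks in wild-type and at 6 and 0 in G325E, HSPA1A and HSPA1B at 14 to 23 in every list, and HSPD1 and HSPE1 have peaks in G325E alone.

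A gene was called when its share of the list differed by at least 2-fold between lists, with a list at 0 set at a floor of 3 peaks. Between G325E and wild-type, 4 of the 10 genes were lower (HSP90AA1, HSP90AB1, HSPA8 and HSPA9) and 1 was higher (HSPD1). Over the 2601 genes with at least 6 peaks summed over the lists, 15.8% were lower and 24.1% were higher. HSPE1, with 3 peaks, was the one chaperone below that minimum, and HSPA8 and HSPD1 reached it through 1 list each. The median ratio of shares over the 9 chaperones that reached it was 0.635, against 1.1 over 2589 genes. Against vector, 3 of the 10 were lower in G325E (HSP90AA1, HSP90AB1 and HSPA9) and 0 were higher. Of the 2601 genes, 19.5% were lower and 14.2% higher. The median ratio was 0.842 over the 8 chaperones with a peak in either list and 0.894 over 2397 genes. Wild-type against vector gave 1 higher (HSPH1, background 7.11%) and 1 lower (HSPA9, background 15.8%), and the median ratios were 0.937 over 8 chaperones and 0.751 over 2341 genes. With both lists scaled by exon-class peaks, HSPA8 and HSPA9 were no longer called between G325E and wild-type, and HSPA1B was called higher.

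HSP90AA1 (GRCh37 chr14:102547079-102553381, minus strand), the inducible cytosolic HSP90, had 16 peaks with vector, 32 with wild-type and 6 with G325E. Its share of the list in G325E was 0.238 of wild-type (0.0814 to 0.578) and 0.268 of vector (0.086 to 0.722). In vector and wild-type the peaks reached from the first codon to the last of 732, in 8 and 9 of the 11 exons, with the widest gaps between codons 90 and 351 in vector and 206 and 331 in wild-type. In G325E, 2 peaks were coding, at codons 10 and 85, and the other 4 lay in the intron before the start codon, 120 to 455 bases from the transcript start. Coding bases under a peak were 27% with vector, 42.9% with wild-type and 3.83% with G325E.

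HSP90AB1 (chr6:44214838-44221620, plus strand), the constitutive cytosolic HSP90, had 16 peaks with vector, 23 with wild-type and 0 with G325E. With the floor of 3 peaks, its share by annotation in G325E was at least 7.45-fold lower than in vector. Against wild-type it was at least 6.03-fold lower. Neither bound holds by position. By annotation, HSP90AB1, HSPA8 and HSPA9, 3 of the 10 chaperones, had 0 peaks in G325E and some in wild-type. Over the 2601 genes with at least 6 peaks, 22% did. Position gave a fuller picture than the annotation. The last coding exons of HSP90AB1 lie near the end of SLC35B2, a neighbour on the opposite strand, and 4 peaks in wild-type and 5 in G325E that lay on HSP90AB1 coding sequence and strand had been annotated to SLC35B2. By position, HSP90AB1 had 15, 27 and 5 peaks, and its share in G325E was 0.235 of wild-type (0.0707 to 0.62) and 0.238 of vector (0.0678 to 0.69). The 5 G325E peaks covered codons 592 to 712, in the last 2 exons. Those codons were without a listed peak in vector, where the last covered codon was 577. Between listed HSP90AB1 peaks, vector skipped 3 numbers, wild-type 2 and G325E 0. Numbers skipped after the last vector peak are not in this count. A vector peak left out there cannot be told apart from none. Coding bases under a peak were 22.7%, 47.1% and 11.9% in vector, wild-type and G325E.

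The HSP90 paralogs were covered in matching places most often in wild-type, where their coverage was also highest. Their coding sequences aligned over 2172 bases with 76.1% identity and shared 0 windows of 29 bases. Of the HSP90AA1 bases under a wild-type peak, 74.3% were matched by a covered HSP90AB1 base, and 67.3% of the covered HSP90AB1 bases were matched in turn. These shares were 23.7% and 27.8% in vector, close to the coverage of HSP90AB1 (22.7%) and HSP90AA1 (27%) in that list. In wild-type, coverage of HSP90AB1 and HSP90AA1 was 47.1% and 42.9%. In G325E, 0 aligned bases were covered in both, since the peaks on HSP90AA1 lay at its first codons and those on HSP90AB1 at its last. Of the 29-base windows, 57.1% in HSP90AA1 and 48.5% in HSP90AB1 had further copies in the genome. Of the 11 pseudogenes named after them, HSP90AB3P had 2 wild-type peaks and the others had none. Between listed peaks of HSP90AA1 the numbering skipped 4 numbers with vector, 6 with wild-type and 0 with G325E. What those numbers stood for is not known here, and their part in these counts was not tested.

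**Figure D2:**
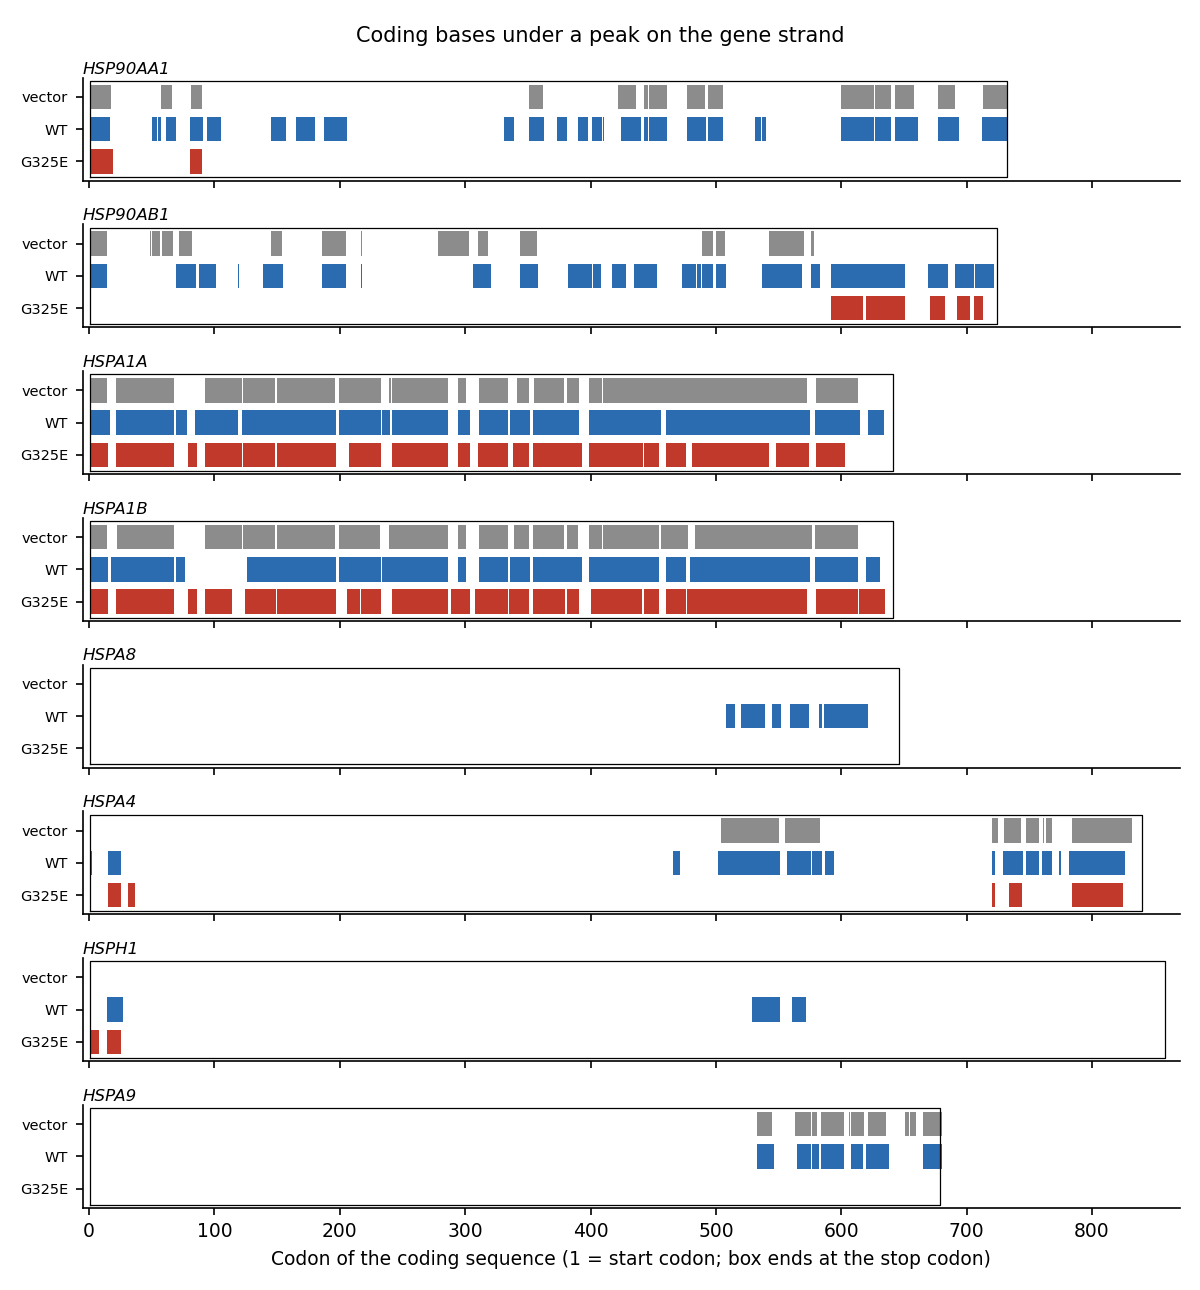
Stretches of coding sequence under a peak on the gene's own strand in 8 chaperone genes, by codon (1 is the start codon), with vector in grey, wild-type DDX3X in blue and DDX3X G325E in red. HSPA1A and HSPA1B are covered over 79.7% to 89.9% of their length in all 3 lists, HSPA8, HSPA9 and vector HSPA4 are covered only from codon 503 on, and the G325E peaks on HSP90AA1 and HSP90AB1 lie at opposite ends.

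The inducible HSP70 genes HSPA1A (chr6:31783320-31785719, plus strand) and HSPA1B (chr6:31795515-31798031, plus strand) are single-exon neighbours. HSPA1A had 14 peaks with vector, 15 with wild-type and 16 with G325E. HSPA1B had 19, 18 and 23 in the same order. Neither gene passed the 2-fold threshold in any comparison, with G325E to wild-type ratios of 1.36 (0.627 to 2.94) and 1.62 (0.838 to 3.19). Another 2, 5 and 5 peaks on HSPA1A had been annotated to the promoter of HSPA1L, which runs the other way. Coding coverage was the highest of the 10 genes in every list, at 82.1% for both genes in vector, 89.9% and 82.9% in wild-type, and 79.7% and 85.6% in G325E.

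The values of HSPA1A and HSPA1B are not independent. Their coding sequences differ at 4 of 1923 bases (99.8% identity), and the first 1709 bases are identical. A footprint from most of the sequence therefore fits both, and 95.9% of their 29-base windows occur more than once in the genome. Counting from the A of the start codon, with the HSPA1A base first, the differences are G1710T, G1860C, C1905T and A1920G. The first lies under a peak of both genes in all 3 lists, and is in capitals here.
HSPA1A, codon 570, chr6:31785229-31785258, plus strand: gacaagaagaaggtGctggacaagtgtcaa
HSPA1B, codon 570, chr6:31797423-31797452, plus strand: gacaagaagaaggtTctggacaagtgtcaa
The pair was in the same state, covered in both or in neither, at 97.8% of coding positions with vector, 90.2% with wild-type and 89% with G325E. In vector, 13 of the 15 HSPA1A peaks inside the coding sequence began within 3 bases of an HSPA1B peak at the same place. What each of the genes contributed cannot be told apart from these peaks.

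HSPA8 (chr11:122928197-122932844, minus strand), the constitutive cytosolic HSP70, had 9 peaks in wild-type and 0 in both other lists. Its share in G325E was at least 2.36-fold lower than in wild-type, but on the gene's strand alone it had 7 wild-type peaks, the bound was 1.84-fold and it was not called. Its 6 coding peaks in wild-type lay between codons 508 and 621 of 646, in exons 8 and 9, and 2 of the 9 peaks were on the opposite strand. HSPA8 has 17 pseudogenes by name in the annotation, none of which had a peak, and 53.7% of its coding windows occur more than once. Only 1 of its 6 coding peaks had its midpoint in such a window. The vector list had 0 skipped numbers in the 5432136 bases between the listed peaks on either side of the gene.

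The HSP110 genes had no repeated coding windows. HSPA4 (chr5:132387705-132442141, plus strand) had 9 peaks with vector, 17 with wild-type and 11 with G325E, and its share in G325E was 0.822 of wild-type (0.348 to 1.86). Where the peaks lay differed more than their number. All 9 vector peaks were coding, between codons 503 and 832. Wild-type had 14 coding peaks and 3 in the 5′-UTR, and G325E had 5 coding, 3 in the 5′-UTR, 2 upstream of the transcript start and 1 on the other strand. Coding bases under a peak were 18.8%, 22% and 8.57% in vector, wild-type and G325E.

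HSPH1 (chr13:31709110-31736041, minus strand) had 0 peaks with vector, 12 with wild-type and 6 with G325E. Its share was at least 2.25-fold higher in wild-type than in vector, and in G325E it was 0.635 of wild-type (0.196 to 1.83). On the gene's strand, wild-type had 3 peaks upstream, 3 in the 5′-UTR and 3 in coding sequence, and a further 3 lay on the other strand. G325E had 2, 3 and 1, and each of its 6 peaks overlapped a wild-type peak. The wild-type coding peaks at codons 540 and 566 had no counterpart in G325E. Across the 14875894 bases between the vector peaks on either side of HSPH1, 3 numbers were skipped. What they stood for is not known, so a vector peak left out at this gene cannot be told apart from none. On the gene's strand alone, HSPH1 had 9 wild-type peaks and was not called against vector.

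HSPA9 (chr5:137889445-137911090, minus strand), the mitochondrial HSP70, had 11 peaks with vector, 8 with wild-type and 0 with G325E. Its share in G325E was at least 5.12-fold lower than in vector and at least 2.1-fold lower than in wild-type. Wild-type stood at 0.41 of vector (0.143 to 1.12). All of its coding peaks lay in exons 13 to 17 and covered codons 533 to 679 of 679, and 7 of the 8 peaks in wild-type lay over 1 in vector. The Gene Name column gives these peaks to SNORD63, a small nucleolar RNA hosted in an HSPA9 intron, and under that column HSPA9 had 0 peaks in every list.

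HSPD1 (chr2:198351308-198364564, minus strand), the HSP60 barrel, and HSPE1 (chr2:198365103-198368173, plus strand), its HSP10 lid, start close together and are read in opposite directions. By annotation HSPD1 had 6 peaks in G325E and HSPE1 had 3, and both had 0 in vector and wild-type. With the floor of 3 peaks, the HSPD1 share was at least 2.54-fold higher than in wild-type. The strand reversed the names. All 6 peaks annotated to HSPD1 were on the strand of HSPE1, with 4 upstream of its canonical transcript and 2 in its 5′-UTR. All 3 annotated to HSPE1 were on the strand of HSPD1, with 1 upstream, 1 in the 5′-UTR and 1 in an intron. With peaks on the gene's own strand alone, HSPD1 was not called. Neither gene had a peak with its midpoint in coding sequence in any list. Vector had 3 skipped numbers in the 12714854 bases around the genes and wild-type had 0 in 6270103.

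**Figure D3:**
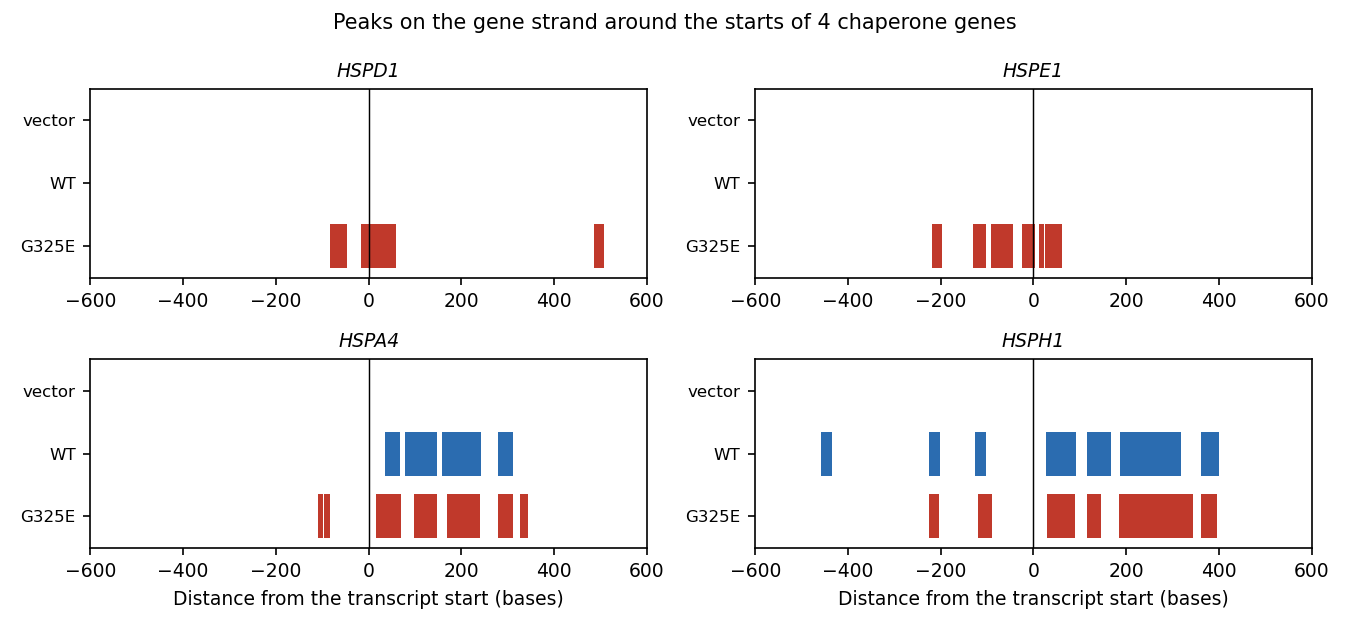
Peaks on the gene's own strand within 600 bases of the annotated transcript start (vertical line) of HSPD1, HSPE1, HSPA4 and HSPH1, in the vector, wild-type DDX3X and DDX3X G325E lists, with distance in bases on the horizontal axis. HSPD1 and HSPE1 show peaks in G325E alone, HSPA4 and HSPH1 in wild-type and G325E, and vector has none in this window.

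The classes of the peaks moved with these shifts. Exon-class peaks were 94.1% of the chaperone peaks with vector (87 to 97.5), 83.6% with wild-type (76.4 to 88.9) and 59.2% with G325E (47.5 to 69.8). Peaks in the promoter-TSS class, which takes in the start of the transcript, were 2.35% (0.648 to 8.18), 5.97% (3.06 to 11.3) and 26.8% (17.9 to 38.1). In the full lists, the exon class held 49.5%, 51.6% and 35.6% in vector, wild-type and G325E and the promoter-TSS class 23%, 21.1% and 34.7%. In vector and wild-type the chaperones thus had more of their peaks in exons than the lists at large, also without HSPA1A and HSPA1B (96.2% and 84.2%). Their exon share was lower in G325E, as that of the list was. Without HSPA1A and HSPA1B, 25% of the 32 G325E chaperone peaks were in exons, against 35.6% of the list. No interval was computed for this share. The 4 wild-type and 5 G325E peaks on HSP90AB1 coding sequence that were annotated to SLC35B2 are not in these shares. With those 5 counted as exon peaks, the 25% would be higher and closer to the list.

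Within coding sequence, the mean position of the chaperone peaks (0 at the start codon, 1 at the stop codon) was 0.561 over 81 peaks in vector, 0.573 over 116 in wild-type and 0.505 over 50 in G325E. Over all genes it was 0.497, 0.504 and 0.402. Without the inducible pair, the chaperone means were 0.627, 0.605 and 0.576. In genes of at least 600 codons that are no chaperone of this list, 53% of vector peaks (50.5 to 55.5) and 55.2% of wild-type peaks (53.6 to 56.7) lay in the second 50% of the coding sequence. For the chaperones other than the inducible pair it was 69.4% of 49 with vector (55.5 to 80.5) and 72.1% of 86 with wild-type (61.8 to 80.5). In G325E it was 61.5% of 13 (35.5 to 82.3), against 36.5% in the other genes (34.2 to 38.7). The chaperones were not alike in this. HSP90AB1 had 11 of its 15 vector coding peaks in the first 50% and a mean position of 0.357. HSPA4, HSPA8 and HSPA9 were singled out after their values were seen. Their coding peaks lay in the second 50% in 19 of 19 cases in vector, where HSPA8 had 0 peaks, and 27 of 28 in wild-type. In G325E it was 3 of 5, all on HSPA4. In the first and second 50%, G and C were 42.1% and 42.1% in HSPA4, 47% and 46% in HSPA8 and 47.9% and 44.8% in HSPA9. Repeated windows were 0% and 0%, 55.8% and 51.5%, and 18.7% and 23.3% in the same genes. The part of either in the position of the peaks was not tested. Per the labels, all 3 libraries had harringtonine for 90 s, so its part in the positions could not be tested either.

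Coding bases under a peak, which do not depend on how a covered stretch is divided, were 26% of the chaperone total with vector, 33.8% with wild-type and 19.7% with G325E. HSPA1A and HSPA1B were at 82.1%, 86.4% and 82.7%. The other 8 genes were at 12%, 20.7% and 3.99%. Coding G and C content was 63.1% in HSPA1A and HSPA1B and 40.9% to 47.6% in the others, and the G325E list as a whole was richer in G and C (73.1% over the 31 bases around a peak's midpoint, against 62.7% in vector and 62.3% in wild-type). The HSP70 pair also has the most repeated sequence, so composition, repetition and gene identity cannot be told apart for it.

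**Figure D4:**
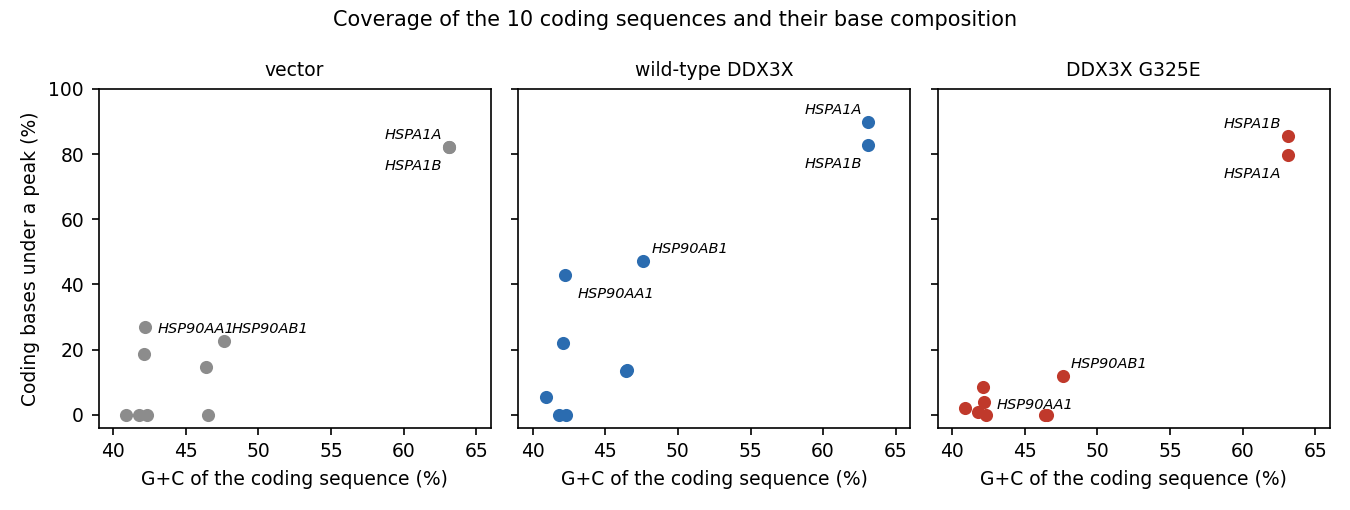
Percent of coding bases under a peak (vertical axis) against the G and C content of the coding sequence (horizontal axis, percent) for the 10 chaperone genes in each list. HSPA1A and HSPA1B, at 63.1% G and C, stay between 79.7% and 89.9% covered, while the other 8 genes, at 40.9% to 47.6%, reach 47.1% in wild-type and 11.9% in DDX3X G325E.

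Which peaks recurred between lists followed the same division. Of the 85 vector peaks on chaperones, 44.7% were overlapped by a G325E peak (34.6 to 55.3). This was close to the 46.4% of the 11134 vector peaks on other genes (45.5 to 47.4). For HSPA1A and HSPA1B the share was 97%, and for the other chaperones 11.5%. A wild-type peak overlapped 87.1% of the 85 (78.3 to 92.6), and the same share over other genes was not computed. Of the 134 wild-type peaks, 34.3% were overlapped by a G325E peak (26.8 to 42.7), close to the 33.6% of 19786 on other genes (33 to 34.3). The chaperone value was 87.9% for HSPA1A and HSPA1B and 16.8% for the other genes. The 46 that recurred in G325E averaged 65.3% G and C, and the 88 that did not averaged 45.9%. Recurrence was then taken within classes of composition. Among wild-type peaks under 50% G and C, 4.55% of the 66 on chaperones (1.56 to 12.5) and 14% of the 3791 on other genes (12.9 to 15.1) recurred in G325E. At or over 50%, it was 63.2% of 68 (51.4 to 73.7), against 38.3% of 15995 (37.5 to 39). Without HSPA1A and HSPA1B it was 38.9% of 36 (24.8 to 55.1). Among vector peaks under 50%, 8.33% of 36 on chaperones (2.87 to 21.8) and 23.4% of 1993 on other genes (21.6 to 25.3) recurred. For vector peaks at or over 50%, it was 71.4% of 49 (57.6 to 82.2), against 51.4% of 9141 (50.4 to 52.5). There, the chaperones without HSPA1A and HSPA1B were at 18.8% of 16 (6.59 to 43). The part of base composition in these differences was not tested further.

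Other genes of the chaperone network gave counts in the same range. Of 41 co-chaperones, regulators and further heat shock proteins, 27 had a peak and 22 had at least 6. Between G325E and wild-type 5 of the 22 were lower and 2 higher. Over all genes with at least 6 peaks, 15.8% were lower and 24.1% higher. The share of the 41 genes in G325E was 0.695 of wild-type (0.561 to 0.857) and 0.919 of vector (0.71 to 1.19). HSPA1L, among the 41, had 3, 10 and 10 peaks in vector, wild-type and G325E. Of these, 2, 5 and 5 lay on HSPA1A. HSPA2, a testis-enriched HSP70, had 0 peaks with vector, 14 with wild-type and 0 with G325E, and TRAP1, the mitochondrial HSP90, had 5, 21 and 0. STIP1, the adaptor that links HSP70 to HSP90, had 12, 26 and 8. CDC37, which brings kinases to HSP90, had 18, 23 and 18, and the HSP90-bound immunophilin FKBP4 had 13, 22 and 15. HSPB1, a small heat shock protein, had 11, 15 and 15. Of these HSP90 partners, STIP1 was called lower between G325E and wild-type, whereas CDC37 and FKBP4 were not called.

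Chaperones of other compartments were set beside these. The 13 endoplasmic reticulum chaperones had 108 peaks with vector, 159 with wild-type and 70 with G325E, a G325E to wild-type ratio of shares of 0.559 (0.416 to 0.745), and 3 of the 10 with at least 6 peaks were lower and 1 higher. HSPA5, the HSP70 of that compartment, had 23, 28 and 8, and the exchange factor HYOU1 had 15, 19 and 0. The 8 subunits of TRiC, the cytosolic ring that folds actin and tubulin, had 30, 62 and 15 peaks, a ratio of 0.307 (0.162 to 0.547), with 4 of the 5 that reached 6 peaks lower. The interval for the 8 chaperones other than the inducible pair (0.262 to 0.604) overlapped the intervals of both groups. For the calls between G325E and wild-type, 15.8% of all genes with at least 6 peaks were lower and 24.1% higher.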

How the data were processed

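The deposited lists held peak positions (chromosome, start, end, strand), an annotation and a gene name, 1 list for each of 3 HEK293T libraries placed in its group by the over-expression product in its labels. Per the study's methods and the labels, the authors trimmed adapters with cutadapt, aligned reads with BWA 0.5.5 to hg19 (GRCh37), removed duplicates and called peaks in each sample on its own where base coverage passed a cut-off, with manual review. The layout is that of HOMER. Removing duplicates and a fixed cut-off tie the number of peaks to read depth, which the lists do not give. Numbers were skipped in 2 of the lists, and the reason is not known here. No column held a count or intensity, so no count model could be used.

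Peaks were given to genes through 4434 of 4532 RefSeq identifiers that matched the RefSeq table (98.2% of annotated peaks), and otherwise through the Gene Name. Coding positions came from 1 transcript a gene in GENCODE 44 lifted to GRCh37, with upstream meaning up to 500 bases before its start. A peak of no length was taken as 1 base, and overlap meant at least 1 base on the same strand. Intervals were 95% Wilson, exact Poisson or exact conditional binomial. Copies in the genome were counted for 29-base windows. Calls used a 2-fold difference in share of the list, a floor of 3 peaks and a minimum of 6 peaks over the lists. The code for the calls was run on simulated counts with planted changes. That run had no skipped numbers or spread between cultures, and it gives no error rate for these lists. Printed sequences were the longest coding peak of 20 to 30 bases for each gene and list chosen, and all such peaks of the HSPD1 and HSPE1 start region; 1 further sequence is not reported here. All 10 genes are named with their values. Other listed genes are named only with at least 10 peaks, apart from markers. The genes, lists and comparisons were chosen with earlier results of these data known. Python 3.11.15, numpy 2.4.6, pandas 2.3.3, scipy 1.17.1, pysam 0.24.0 and matplotlib 3.10.9 were used.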

Additional observations from a re-analysis of the deposited data

Results flagged for a closer look

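Peaks outside the counted ones lay on 2 of the chaperones, in raw numbers above vector that were not scaled to the size of the list. On HSP90AB1, peaks annotated to the neighbour SLC35B2 numbered 0 in vector, 4 in wild-type DDX3X and 5 in DDX3X G325E. On HSPA1A, peaks annotated to the neighbour HSPA1L numbered 2 in vector, 5 in wild-type DDX3X and 5 in DDX3X G325E. These differences were not tested, since each construct had 1 library. What the skipped numbers of the vector and wild-type lists stood for is not known.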

How the results depend on the processing

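Of 126 recomputed values, 99 moved by less than their interval or by less than 1.5 times, and 27 moved further. No ratio of the chaperone shares whose interval excluded 1 crossed it, but some intervals came to include 1. By the Gene Name column, G325E stood at 0.821 of wild-type (0.606 to 1.11) and 0.756 of vector (0.539 to 1.06). Scaled by the median gene ratio, G325E stood at 0.768 of vector (0.553 to 1.07). The intervals scaled by exon-class peaks also included 1. The wild-type to vector ratio, whose interval included 1 (0.888, 0.672 to 1.18), turned from below to above 1 without HSPA1A and HSPA1B (1.09) and when scaled by the median gene ratio (1.3, 0.983 to 1.73). No paired analysis was possible because each construct had 1 library and no replicate number was shared. No replicate could be left out for the same reason. Without HSPA1A and HSPA1B, peaks fell to 52 in vector and 32 in G325E, the G325E to wild-type ratio of shares to 0.403, the G325E exon-class share to 25%, coding bases covered to 12%, 20.7% and 3.99% in vector, wild-type and G325E, and the mean coding position in vector went to 0.627. In windows that occur once, coding bases covered were 11.7%, 19.2% and 5.29%, and as a mean over genes 24.7% in vector and 31.8% in wild-type. Scaled by exon-class peaks, the ratios of G325E to wild-type and vector were 0.977 and 0.832, with 2 genes lower and 2 higher in G325E than in wild-type. The median gene ratio scaling called 2 genes higher with wild-type relative to vector and 0 lower. By position, 2 genes were higher in G325E than in wild-type and 0 in wild-type than in vector. On the gene's strand alone both were 0. By the Gene Name column, 1 gene (HSPD1) was higher in G325E than in vector. With RefSeq and gene name pairs of the lists alone, an alternative chosen after seeing the data, this was 1 as well. Under those pairs, 0 genes were lower in wild-type than in vector. By the Gene Name column, the 1 gene lower in wild-type than in vector was HSP90AB1 in place of HSPA9. The other alternatives, leaving out peaks of no length among them, stayed within those bounds. Read depth, which is not in these lists, limits what an absent peak can mean.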
